A study of Homo sapiens with 4 samples.

Results

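The E2F, DP and RB families form the switch that controls entry into S phase. In RNA bound to TIA1, 10 of their genes were described here: the activator E2Fs E2F1 and E2F3, the repressor E2Fs E2F4, E2F5 and E2F6, the DP partners TFDP1 and TFDP2, and the pocket proteins RB1, RBL1 and RBL2. They were chosen by name, as every probe other than a control whose identifier mapped to 1 of these 10 symbols, and 15 probes were found. Of the 15, 13 were kept after a filter on dim signal, and they covered all 10 genes, of 13039 genes kept in all. A probe passed this filter if its spots stood clear of the background in both replicates of TIA1 RIP, of total RNA or of both. The probes of RB1 and E2F5, and 1 of the 3 probes of E2F6, passed through TIA1 RIP only. The same holds below for any gene not well above background on total RNA replicate 2. No support for binding is drawn from high ratios of such probes.

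E2F proteins bind DNA as heterodimers with a DP protein and set the transcription of genes for DNA replication and the cell cycle. Pocket proteins of the RB family bind E2Fs and hold their targets repressed until cyclin-dependent kinases phosphorylate them, and loss of this brake is common in human cancers. TIA1 is an RNA-binding protein of the nucleus and cytoplasm that prefers U-rich RNA, often in 3′ UTRs, and is known for its part in stress granules, splicing and translational control.

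The study asked which transcripts TIA1 binds in KYSE180, an established cell line of esophageal squamous cell carcinoma (ESCC). Ribonucleoprotein immunoprecipitation (RIP) with an antibody against TIA1 was performed on cytoplasmic lysates, and the recovered RNA (TIA1 RIP) was hybridized to 2 single-colour arrays. Total RNA of KYSE180 was hybridized to the other 2. Both groups were the same line with no treatment given in the labels. The study's methods speak of RNA from the input lysates, which were cytoplasmic, while the labels name only total RNA, so whether the reference was cytoplasmic is not settled here. No array of an immunoprecipitate with control IgG was analysed here. A single line stood for the disease, and the labels do not say that replicates came from separate cultures, so the p-values below measure only the spread between these arrays, which may be technical.

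The 4 arrays were not alike in strength. The 75th percentile of the signal, an arbitrary fluorescence unit, was 1514 and 1271 for TIA1 RIP, 714 for total RNA replicate 1 and 69.9 for replicate 2, where 32.2% of spots were well above background, against 45.8% to 48.4% on the other arrays. Because of this, the log2 ratio of each of the 10 genes is given against each total RNA array as well as against their mean. All 6 of 6 squamous markers (KRT5, KRT14, KRT6A, TP63, DSG3 and DSC3) were kept, against 1 of 3 for leukocytes, 1 of 3 for fibroblasts and 1 of 2 for endothelium.

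The stretches richest in U were read from the 3′ UTRs of the annotated transcripts, since U-rich RNA is what TIA1 is known to bind. The windows of 24 bases with the most U are shown for 6 genes that take up different places in the results below. Runs of at least 5 U inside the window are in capitals. At the ends of the TFDP1 and RBL2 windows, such a run is cut by the edge and is left in lower case. The windows were taken from the GENCODE annotation and the GRCh37 genome and are written 5′ to 3′ as RNA.
E2F1 (chr20:32263498-32263521, minus strand): ugcuuugguuuuaauaaauauuuu
E2F3 (chr6:20493436-20493459, plus strand): uuauuuugUUUUUgUUUUUcuguu
E2F4 (chr16:67232647-67232670, plus strand): ucucuucauuucggcUUUUUcauu
TFDP1 (chr13:114294818-114294841, plus strand): uuuuguguuuucauuugcuauuuu
RB1 (chr13:49055298-49055321, plus strand): uugucuauuuaucuuuuaUUUUUU
RBL2 (chr16:53524965-53524988, plus strand): uuuucuuuaaugcuuuuauauuuu
The window held 14 U in E2F1 and in E2F4, 17 in TFDP1 and in RBL2, 18 in RB1 and 19 in E2F3. All 6 lie in the 3′ UTR, and that of RB1 begins 1091 bases after the stop codon. Among the genes not shown, the window of TFDP2 held 24 U, more than any shown, inside a run of 26 U.

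All 10 of the 10 genes held both motifs searched on the RNA strand, AUUUA and UUUUU, with overlapping matches counted. Of the 11585 genes kept that had an annotated transcript, 69.5% held AUUUA and 78.3% held UUUUU in the 3′ UTR. The 3′ UTR of RB1 was 1819 bases long, 38.4% U, with 12 matches to AUUUA and 19 to UUUUU, the highest U content of the 10. TFDP1 followed with 37% U over 1206 bases and 17 matches to UUUUU. The 3′ UTRs lowest in U belonged to E2F4 (24% of 795 bases) and E2F1 (25.7% of 1255 bases), each with 3 matches to UUUUU. The median over all these genes was 29.4% U, 1181 bases and 6 matches to UUUUU. TFDP2 had by far the longest 3′ UTR of the 10, at 8085 bases, with 27.3% U and 63 matches to UUUUU. Many of these matches overlapped within a run of 26 U. The matches are descriptions of letters and not of binding sites.

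**Figure D1:**
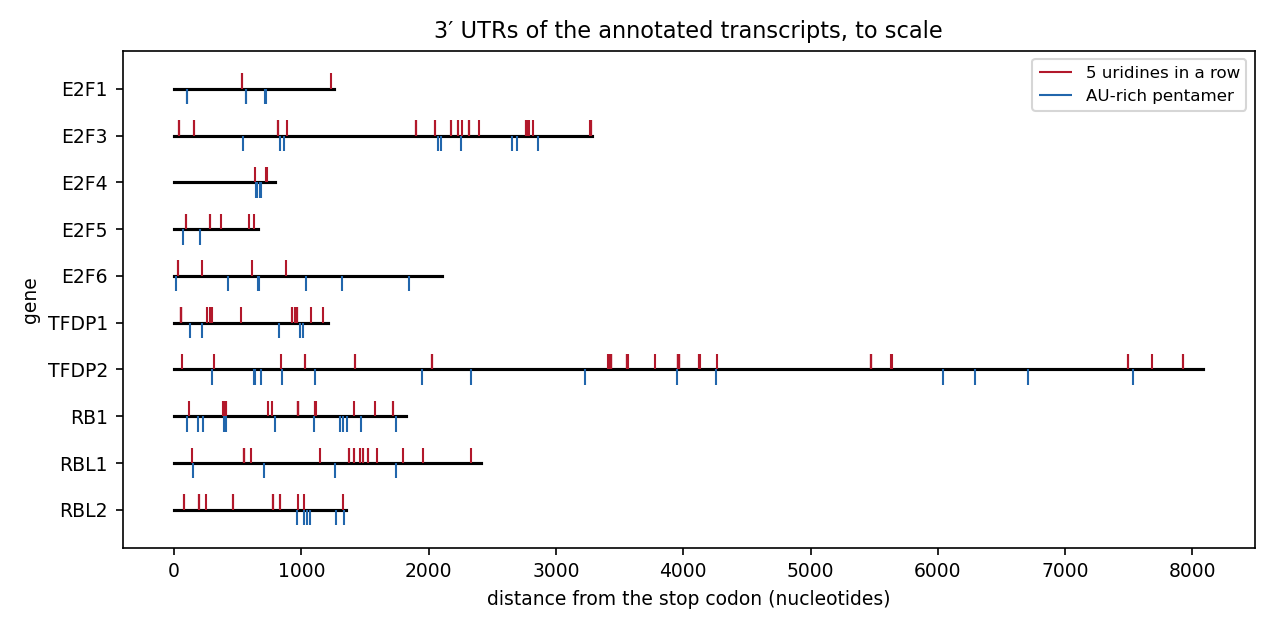
3′ UTRs of the 10 genes drawn to scale from the stop codon (x axis, nucleotides). Marks above a line show the starts of 5 uridines in a row and marks below it show AUUUA. The 3′ UTR of TFDP2 is 8085 nucleotides long and that of E2F5 is 656.

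Signals were compared on a log2 scale after subtraction of the 75th percentile of each array, so that 0 is the 75th percentile of the array and a difference of 1 is a doubling of the signal. Values of different genes come from different probes and are not comparable as levels. On this scale no gene of the 13039 passed a limma adjusted p of 0.05 (0%), and none of the 10 did. At an unadjusted p under 0.05, 144 genes were higher and 524 lower in TIA1 RIP, with 0 of the 10 among them. The adjusted p-values of the 10 lay between 0.775 and 0.958 by limma. With 2 arrays against 2, an exact permutation test of a single gene cannot give a two-sided p under 0.333. The values below are therefore descriptions of 4 arrays. The median log2 ratio (TIA1 RIP over total RNA) of the 10 genes was 0.59, against -0.04 over all genes. Against total RNA replicate 1 alone the medians were 0.05 and 0.07, and against replicate 2 they were 1.17 and -0.29.

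**Figure D2:**
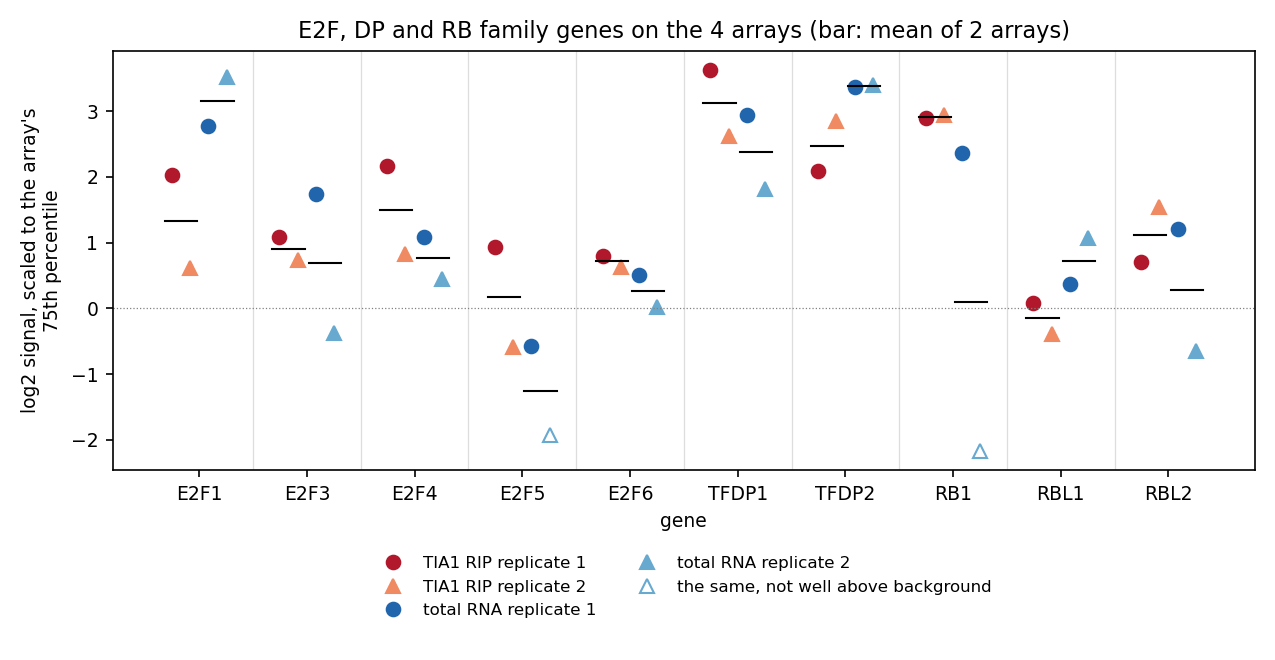
Scaled log2 signal of each gene on the 4 arrays (y axis, 0 being the 75th percentile), with a bar at the mean of the 2 arrays of a group. Both TIA1 RIP arrays lie below both total RNA arrays for E2F1, TFDP2 and RBL1 and above them for E2F6 and RB1, and the open symbols for E2F5 and RB1 were not well above background.

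Among the activator E2Fs, which drive the transcription of S phase genes, E2F1 was lower in TIA1 RIP and E2F3 overlapped. The scaled log2 signal of E2F1 was 2.04 and 0.61 in TIA1 RIP and 2.77 and 3.52 in total RNA. The TIA1 RIP values were below both total RNA values, but were themselves 1.42 apart. Of all genes, 96.8% had a lower signed difference of TIA1 RIP replicate 1 less replicate 2. The log2 ratio of E2F1 was -1.82 (SE 0.88, n = 2 against 2, limma adjusted p = 0.775), with -1.45 against total RNA replicate 1 and -2.20 against replicate 2. Only 7.39% of genes had a lower ratio. The E2F1 probe was printed in 10 spots, and on total RNA replicate 2 these ranged from 755 to 845 units, so the spot error was small beside the gap between arrays.

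E2F3 had scaled log2 signals of 1.09 and 0.73 in TIA1 RIP and of 1.75 and -0.37 in total RNA. The TIA1 RIP arrays lay between the total RNA arrays, so the groups overlapped. Its log2 ratio was 0.22 (SE 0.96, n = 2 against 2, limma adjusted p = 0.958), made of -0.84 against total RNA replicate 1 and 1.28 against replicate 2, which differ in sign. Of the 2 probes of E2F3, 1 was kept, and the other was too dim.

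The repressor E2Fs, E2F4 and E2F5, work mainly with the pocket proteins RBL1 and RBL2, while E2F6 represses without them through Polycomb proteins. All 3 had positive log2 ratios. E2F4 had scaled log2 signals of 2.17 and 0.83 in TIA1 RIP and of 1.09 and 0.44 in total RNA. The higher total RNA array exceeded the lower TIA1 RIP array, so the groups overlapped, and the log2 ratio was 0.73 (SE 0.86, n = 2 against 2, limma adjusted p = 0.842), with 0.41 against total RNA replicate 1 and 1.06 against replicate 2. E2F5 had scaled log2 signals of 0.94 and -0.59 in TIA1 RIP, of -0.58 in total RNA replicate 1 and of -1.93 in replicate 2, where its only probe was not well above background. TIA1 RIP replicate 2 and total RNA replicate 1 were level for E2F5, and the difference rested on the other 2 arrays. The log2 ratio of E2F5 was 1.43 (SE 0.94, n = 2 against 2, limma adjusted p = 0.775), with 0.75 against total RNA replicate 1 and 2.10 against replicate 2.

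E2F6 was measured by 3 probes that disagreed. Its scaled log2 signals, averaged over the probes, were 0.80 and 0.64 in TIA1 RIP and 0.50 and 0.02 in total RNA. TIA1 RIP was higher without overlap, and the log2 ratio was 0.46 (SE 0.78, n = 2 against 2, limma adjusted p = 0.890), with 0.21 against total RNA replicate 1 and 0.70 against replicate 2. The ratios of the single probes were 0.75, 1.44 and -0.82. The probe with the ratio of 1.44 was not well above background on total RNA replicate 2, and with this probe left out by a filter on all 4 arrays the log2 ratio of E2F6 was -0.04. Against total RNA replicate 1 alone the 3 probes were closer, at 0.22, 0.53 and -0.10.

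**Figure D3:**
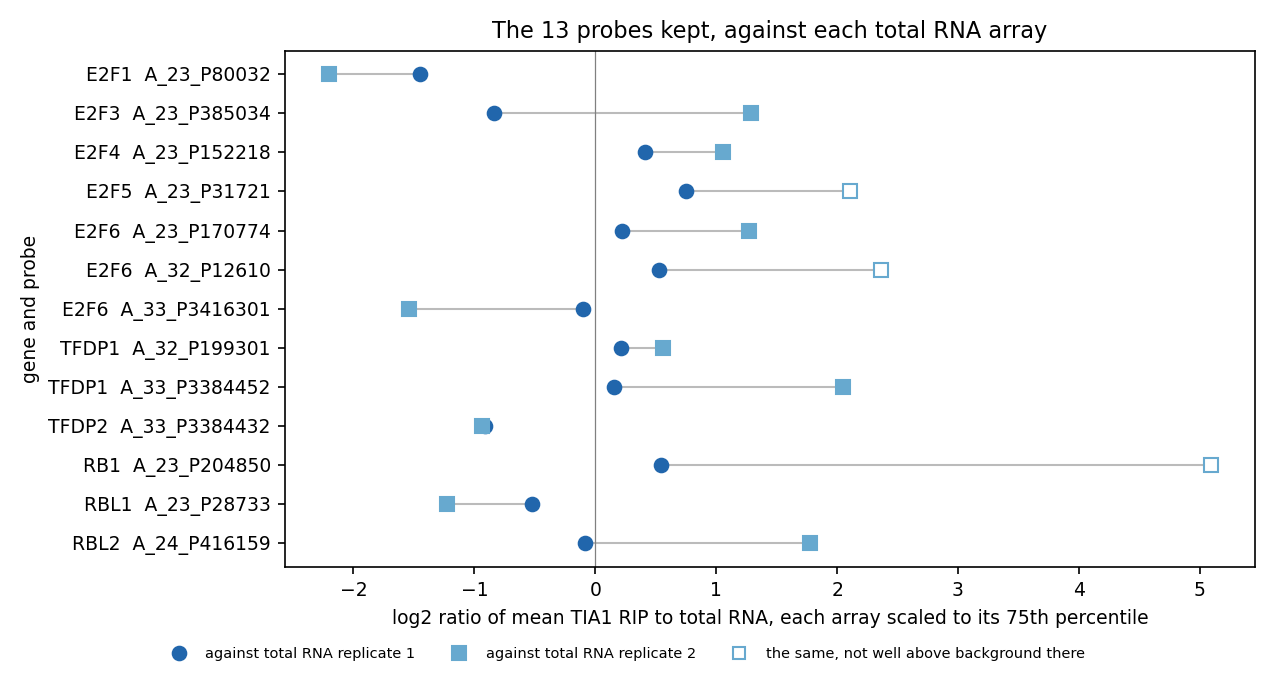
Log2 ratio of the mean of the 2 TIA1 RIP arrays to total RNA replicate 1 (circles) and to total RNA replicate 2 (squares) for the 13 probes kept. The widest gap between the 2 references is that of RB1, from 0.55 to 5.09, and open squares mark the probes of E2F5, E2F6 and RB1 that were not well above background on total RNA replicate 2.

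The DP partners, which every E2F but a few atypical ones needs to bind DNA, went opposite ways on this scale. TFDP1 had scaled log2 signals of 3.63 and 2.62 in TIA1 RIP and of 2.94 and 1.82 in total RNA. The groups overlapped, and the log2 ratio was 0.74 (SE 0.86, n = 2 against 2, limma adjusted p = 0.840), with 0.18 against total RNA replicate 1 and 1.31 against replicate 2. Its 2 probes gave 0.39 and 1.1, and against total RNA replicate 1 they gave 0.21 and 0.15.

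TFDP2 had scaled log2 signals of 2.09 and 2.85 in TIA1 RIP and of 3.38 and 3.41 in total RNA. TIA1 RIP was lower without overlap. The log2 ratio was -0.92 (SE 0.79, n = 2 against 2, limma adjusted p = 0.786). TFDP2 was the gene of the 10 whose ratio depended least on the reference, with -0.91 against total RNA replicate 1 and -0.94 against replicate 2.

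The difference between the DP genes on an array is free of the constant subtracted from that array. The signal of TFDP1 less that of TFDP2 was 1.54 and -0.23 in TIA1 RIP and -0.43 and -1.59 in total RNA, in log2 units. The groups did not overlap, with TIA1 RIP higher, and the 4 pairs of arrays gave differences of 1.97, 3.13, 0.21 and 1.36. The smallest came from TIA1 RIP replicate 2 set against total RNA replicate 1.

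Of the pocket proteins, RB1 gave both the largest log2 ratio and the largest SE of the 10 genes, and RBL1 and RBL2 did not stand out. RB1, the retinoblastoma tumour suppressor, had scaled log2 signals of 2.90 and 2.94 in TIA1 RIP, of 2.37 in total RNA replicate 1 and of -2.17 in replicate 2. The groups did not overlap, with TIA1 RIP higher, and nearly the whole difference came from replicate 2, where RB1 was not well above background. The 10 spots of the RB1 probe ranged from 8.19 to 32.4 units there, from 3377 to 3940 in total RNA replicate 1 and from 9115 to 11837 in TIA1 RIP. The log2 ratio of RB1 was 2.82 (SE 1.43, n = 2 against 2, limma adjusted p = 0.775), higher than that of 99.5% of genes. Against total RNA replicate 1 alone it was 0.55, higher than that of 70.5% of genes. The RB1 probe was kept only through TIA1 RIP, so no support is drawn from its rank or from the lack of overlap.

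RBL1 (p107) acts with E2F4 in cycling cells. Its scaled log2 signals were 0.08 and -0.38 in TIA1 RIP and 0.38 and 1.07 in total RNA. Again TIA1 RIP was lower without overlap, and the log2 ratio was -0.88 (SE 0.80, n = 2 against 2, limma adjusted p = 0.798), with -0.53 against total RNA replicate 1 and -1.22 against replicate 2. Of its 2 probes, 1 was kept.

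RBL2 (p130), the pocket protein of resting cells, had scaled log2 signals of 0.70 and 1.54 in TIA1 RIP and of 1.20 and -0.66 in total RNA. The groups overlapped. The log2 ratio was 0.85 (SE 0.94, n = 2 against 2, limma adjusted p = 0.831), with -0.08 against total RNA replicate 1 and 1.78 against replicate 2.

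In all, 2 of the 10 genes had both TIA1 RIP arrays above both total RNA arrays, against 19.4% of all genes. Another 3 of the 10 had both below, against 21.7% of all genes. These shares are near the background, and nothing about the families as a group is read from them.

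Differences between genes of the families were then set side by side on each array, where the constant subtracted from the array cancels. The signal of E2F4 less that of E2F1 was 0.13 and 0.21 in TIA1 RIP, and -1.68 and -3.08 in total RNA. The TIA1 RIP arrays were close to each other and above both total RNA arrays, by 1.82 to 3.29 over the 4 pairs. E2F5 less E2F1 was likewise higher in TIA1 RIP, by 2.25 and 2.15 against total RNA replicate 1 and by more against replicate 2, where E2F5 was not well above background. Relative to E2F1, the repressors E2F4 and E2F5 were thus higher in TIA1 RIP in each of the 4 pairs. E2F4 and E2F1 each moved by over 1.3 between the TIA1 RIP arrays. E2F6 less E2F1 was also higher in TIA1 RIP, by 1.03 to 3.53, and so was the activator E2F3 less E2F1, by 0.08 to 4.02. E2F1 itself ranked low, with only 7.39% of genes below it by log2 ratio. How many other genes exceed E2F1 in all 4 pairs was not counted, so nothing particular to the repressors is read from these differences. RB1 less RBL1 was 2.82 and 3.32 in TIA1 RIP against 2.00 in total RNA replicate 1 and -3.24 in replicate 2, where RB1 was not well above background. Its TIA1 RIP arrays were above both total RNA arrays, by 0.82 and 1.33 against replicate 1. RBL2 less RBL1 was 0.62 and 1.92 in TIA1 RIP and 0.83 and -1.73 in total RNA, so the groups overlapped. RB1 less RBL2 was higher in TIA1 RIP by 0.23 to 3.71, and E2F5 less E2F4 by 0.25 to 1.14. In these too, RB1 and E2F5 were not well above background on total RNA replicate 2. In all, 9 such gene pairs were looked at, TFDP1 less TFDP2 among them, with no test.

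Enrichment was next expressed relative to GAPDH, a glycolytic enzyme transcript taken by the study as unbound. The study required over 2.5-fold both on the arrays and in RNA sequencing after RIP. Only the arrays were looked at here, so passing 2.5-fold below is not the study's full criterion. TFDP1 was among the transcripts the study reported as past it by both methods. For TFDP1 the study also reported binding by quantitative PCR after RIP, with an IgG immunoprecipitate and not total RNA as the reference. GAPDH had scaled log2 signals of 6.49 and 6.69 in TIA1 RIP and of 7.67 and 9.63 in total RNA, a log2 ratio of -2.06. It was lower in TIA1 RIP on both arrays and lay 1.96 higher on total RNA replicate 2 than on replicate 1, a shift that 20.5% of genes exceeded. A fold relative to GAPDH was higher against replicate 2 than against replicate 1 for all 10 of the 10 genes, and lower for a gene that shifted by more than GAPDH, such as E2F2. ACTB, the cytoskeletal actin, behaved alike, with a log2 ratio of -1.83. On this scale the median gene was at a log2 ratio of 2.02, and no gene of 13038 passed a limma adjusted p of 0.05 (0%), while 2636 had an unadjusted p under 0.05, with 0 of the 10 among them. The adjusted p-values of the 10 lay between 0.221 and 0.838 by limma.

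On the means of the replicates, 7 of the 10 genes were past 2.5-fold relative to GAPDH, against 72.4% of all genes. The members that passed were RB1 at 29.4-fold, E2F5 at 11.2-fold, RBL2 at 7.5-fold, TFDP1 at 6.98-fold, E2F4 at 6.93-fold, E2F6 at 5.72-fold and E2F3 at 4.87-fold. RBL1 at 2.27-fold, TFDP2 at 2.20-fold and E2F1 at 1.18-fold did not pass. The values of RB1 and E2F5 include an array where they were not well above background. The families' share was thus that of genes at large.

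The count turned on which total RNA array was used. With TIA1 RIP replicate 1 against total RNA replicate 1, 5 of the 10 passed (46% of all genes). TIA1 RIP replicate 2 against the same array left 1 of the 10 (40% of all genes). Against total RNA replicate 2 the counts were 10 of the 10 for TIA1 RIP replicate 1 (76.7% of all genes) and 9 of the 10 for replicate 2 (77.7% of all genes).

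RB1 was the only gene of the 10 past 2.5-fold on both TIA1 RIP arrays against total RNA replicate 1, with folds of 3.27 and 2.91. Over all genes 31.1% met this. It was also the only one to pass in all 4 pairs, which 26.2% of all genes did. As its probe was kept only through TIA1 RIP, no support is drawn from these passes. Against total RNA replicate 2, where RB1 was not well above background, its folds were 143 and 128 when its signal was replaced by a floor. This floor was the lowest signal of a probe well above background on that array, and is not a strict limit. E2F6 gave folds of 2.78 and 2.16 against total RNA replicate 1, and RBL2 gave 1.60 and 2.48.

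The activator E2F1 gave folds of 1.36 and 0.44 against total RNA replicate 1 and of 3.15 and 1.02 against replicate 2. It passed in 1 pair of 4. TFDP2 gave 0.93 and 1.36 against replicate 1, and 3.54 and 5.20 against replicate 2. E2F4 gave 4.79 and 1.64 against replicate 1, and 29.3 and 10 against replicate 2. E2F4 therefore passed in 3 pairs of 4, and in the pair that missed, the TIA1 RIP array was replicate 2. E2F5 gave 6.48 and 1.95 against replicate 1, and 36.8 and 11.1 against replicate 2 with the floor used for RB1. TFDP1 gave 3.65 and 1.57 against replicate 1, and 31.0 and 13.4 against replicate 2. Like E2F4, it missed only with TIA1 RIP replicate 2 against total RNA replicate 1. E2F3, with 1.44 and 0.97 against replicate 1, and RBL1, with 1.85 and 1.16, passed there in neither pair.

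**Figure D4:**
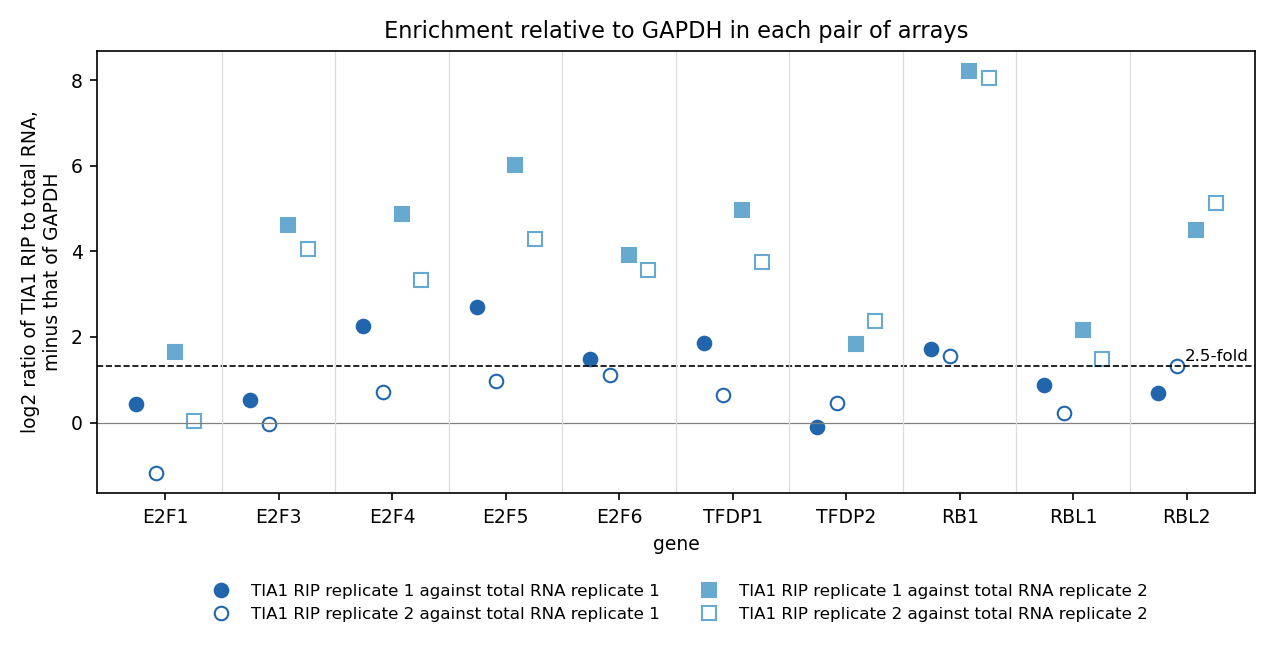
Enrichment in TIA1 RIP less that of GAPDH (y axis, log2) for each of the 4 pairs of arrays, with the 2.5-fold line dashed. Against total RNA replicate 2 (squares) 10 and 9 of the 10 genes pass the line, and against replicate 1 (circles) 5 and 1 pass.

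The gap between the total RNA arrays followed the GC content of the transcripts. Over the 11585 genes with an annotated transcript, the shift from total RNA replicate 1 to replicate 2 correlated with GC content (Pearson's r = 0.70 across genes, which share the 2 arrays and are not independent), while the shift between the TIA1 RIP arrays did not vary with it in this way (r = 0.07). The genes were divided by GC content into 10 classes of equal size, and the median shift of the class lowest in GC was -2.06. RB1, with 37.1% GC, belonged to this class and shifted by -4.54, to a value not well above background. E2F1, with 61.6% GC, shifted by 0.75, where the median of its class was 1.74.

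E2F4 had 58.1% GC and shifted by -0.65, against a median of 1.36 for its class. RBL1, with 40.0% GC, shifted by 0.70 where its class had a median of -1.69. The other 6 genes had GC contents of 42.8% to 46.9% and shifts of -2.12 to 0.03. When the median of each GC class was subtracted on every array, as an alternative added once the data had been seen, the log2 ratio was 1.43 for RB1, -0.98 for E2F1, 1.38 for E2F4 and -1.95 for RBL1. It was 0.063 for E2F6, 0.0021 for RBL2, 0.35 for TFDP1, -0.17 for E2F3, 1.28 for E2F5 and -1.07 for TFDP2. On that scale 7 genes lay nearer to 0, and E2F4, RBL1 and TFDP2 farther from it. Whether base composition, RNA quality or the low signal of total RNA replicate 2 accounts for the shifts was not tested.

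**Figure D5:**
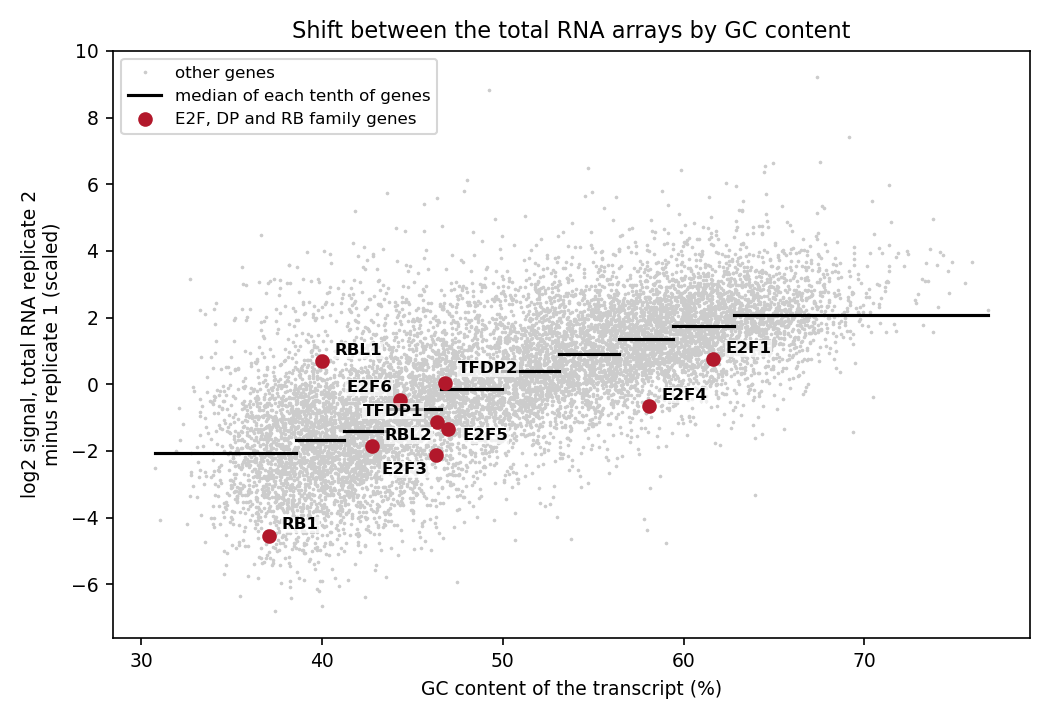
Scaled log2 signal on total RNA replicate 2 less that on replicate 1 (y axis) against GC content of the transcript (x axis, %), for 11585 genes in grey with the 10 genes in red and a bar at the median of each of 10 classes by GC content. RB1 at -4.54 lies below the median of -2.06 of its class, and RBL1 at 0.70 lies above that of its own.

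A second source of spread was the TIA1 RIP pair. E2F5, E2F1, E2F4 and TFDP1 were lower on TIA1 RIP replicate 2 than on replicate 1 by 1.53, 1.42, 1.34 and 1.01 on the log2 scale. Of all genes, 97.4%, 96.8%, 96.3% and 92.3% had a lower signed difference of replicate 1 less replicate 2. RB1 differed by 0.04 between the same arrays, while TFDP2 and RBL2 were 0.76 and 0.84 higher on replicate 2. Without TIA1 RIP replicate 1 the log2 ratio was 0.060 for E2F4 and 0.67 for E2F5, and without TIA1 RIP replicate 2 it was 1.40 and 2.19. For E2F1 the same values were -2.53 and -1.11.

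Another 4 family genes were left out of the 10. E2F2, another activator, had scaled log2 signals of 1.06 and 1.64 in TIA1 RIP and of 1.78 and 4.23 in total RNA. TIA1 RIP was lower without overlap, as for E2F1, and the log2 ratio was -1.65 (SE 1.02, n = 2 against 2, limma adjusted p = 0.775), with -0.43 against total RNA replicate 1. The atypical repressors E2F7 and E2F8, which bind DNA without a DP partner, had log2 ratios of 0.032 and 1.04 and overlapped, and E2F8 was not well above background on total RNA replicate 2 (0.076 against replicate 1). TFDP3 was too dim on the arrays to be kept.

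The kinases and inhibitors upstream of the pocket proteins were described by a list of 15 genes, of which 13 were kept. None of the 13 passed a limma adjusted p of 0.05 in either direction, and 0 did at an unadjusted p under 0.05. Their median log2 ratio was 0.37, against -0.04 for all genes, and 13 of 13 were past 2.5-fold relative to GAPDH on the means, where 72.4% of all genes were. Of the 13, 5 passed on both TIA1 RIP arrays against total RNA replicate 1, where 31.1% of all genes did. The highest ratios were those of CCNE2 (2.42, and 0.59 against total RNA replicate 1), a cyclin that drives S phase entry and was not well above background on replicate 2, and of CDK6 (1.25, and -1.05 against replicate 1), a kinase of RB1. The lowest were those of CDKN2A (-0.16), an inhibitor of CDK4 and CDK6, and CDKN1A (0.095), the p21 inhibitor, which was also not well above background on replicate 2.

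The MuvB core joins RBL1 or RBL2 in the DREAM complex and, once these have left, binds B-MYB and FOXM1. This list had 7 genes and 7 were kept. Their median log2 ratio was 0.54, with 0 of 7 called by limma and 0 of 7 at an unadjusted p under 0.05. Of the 7, 6 were past 2.5-fold relative to GAPDH on the means (72.4% of all genes) and 1 of 7 on both TIA1 RIP arrays against total RNA replicate 1 (31.1% of all genes). LIN52 (1.55, and 1.18 against replicate 1) and LIN54 (1.23, but -0.28 against replicate 1), subunits of the MuvB core, were highest, and LIN54 was not well above background on replicate 2. MYBL2 (-1.09), the B-MYB activator, and LIN37 (-0.72) were lowest.

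The corepressors bound by RB proteins or E2F6 were 17 genes and 16 were kept, with a median log2 ratio of 0.27. None was called by limma, and at an unadjusted p under 0.05 there was 1 higher and 1 lower. Of the 16, 13 were past 2.5-fold relative to GAPDH on the means (72.4% of all genes), and 4 of 16 on both TIA1 RIP arrays against total RNA replicate 1 (31.1% of all genes). PCGF6, a Polycomb partner of E2F6, had the highest ratio at 2.83, and 1.51 against total RNA replicate 1. RBBP8 was at 2.06, and at -0.021 against replicate 1. Neither PCGF6 nor RBBP8 was well above background on replicate 2. SMARCA4, the BRG1 ATPase that acts with RB1, had the lowest at -3.51 (SE 0.81, n = 2 against 2, limma adjusted p = 0.590), with -3.00 and -4.02 against the 2 total RNA arrays. SMARCA2, its paralogue, was at -0.91.

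The E2F target genes, 28 of 28 kept, had a log2 ratio of 0.33 at the median, or -0.31 against total RNA replicate 1. None was called by limma, and at an unadjusted p under 0.05 there was 1 higher and 0 lower. Of the 28, 21 were past 2.5-fold relative to GAPDH on the means (72.4% of all genes) and 4 of 28 on both TIA1 RIP arrays against total RNA replicate 1 (31.1% of all genes). CDK1 (2.31, and 1.32 against replicate 1), the mitotic kinase, and RRM2 (2.27, and 0.83 against replicate 1), a subunit of ribonucleotide reductase that was not well above background on replicate 2, were highest. TK1 (-2.20), a thymidine kinase, and MCM7 (-1.76), a subunit of the replicative helicase, were lowest.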

How the data were processed

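The authors hybridized TIA1 RIP and total RNA to 2 single-colour Agilent arrays each and deposited scanner files (Agilent Feature Extraction 10.7.1.1) that give each spot a processed fluorescence intensity on a linear scale after background subtraction. The deposited files also hold other columns with flags (detected, saturated, deviant or uneven spots), and these served as filters. The authors' later steps ran in GeneSpring: signals were set against constitutive mRNA expression levels measured by microarray, and enrichment against that of GAPDH. A test for this step is not given in the sources used here.

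The intensities of 58717 spots per array were converted to log2 after 299 to 382 flagged spots were left out, and each array's 75th percentile was taken off. No spot was left out for saturation (0 saturated). Detection of a probe required that a share of at least 0.5 of its spots be well above background, and 20106 probes detected in both replicates of a group were kept. Symbols came from RefSeq accessions and GENCODE for 34510 of 50599 probes, and probes of a gene were averaged. Arrays were compared with limma 3.58.1 (lmFit and eBayes) in R 4.3.3, with Benjamini-Hochberg adjustment over all genes and a threshold of 0.05. For enrichment relative to GAPDH, each array's GAPDH value was subtracted first. All 4 arrays were on 1 slide and in 1 scan. The number of arrays limits the precision.

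The members, gene lists and tests were chosen with earlier results of these data known. Genes named are the 10 members, the other family genes, GAPDH and ACTB, and the 2 highest and 2 lowest of each list. The alternatives were a replicate block, other background correction (normexp, offset 50), quantile normalization, other filters, probe choice, reference genes and each array left out.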

Additional observations from a re-analysis of the deposited data

How the results depend on the processing

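Genes called by limma numbered 0 in the 7 alternatives of background, scaling, filter, probe choice and GC content, and 0 relative to GAPDH in these, with the block and with other references. With the replicate block, which pairs arrays by number only (correlation of their deviations 0.45), 356 genes were called (57 higher, 299 lower) and 0 of the 10. Leaving out 1 array gave 0 to 3900 genes, and 0 to 9775 relative to GAPDH. Without TIA1 RIP replicate 1 the count was 7. Both highest counts arose without total RNA replicate 1, where the lone total RNA array is assumed to vary like the TIA1 RIP pair. Members were among the genes called there on both scales, as were most of all genes relative to GAPDH. No call is read from that fit. The log2 ratio of RB1 without total RNA replicate 1 was 5.09. Without total RNA replicate 2 no gene was called. Members past 2.5-fold were 3 to 9 of 10 with 1 array left out and 2 with the median gene in place of GAPDH. The shares of all genes at those settings are not given here, so nothing about the members is read from these counts. For TIA1 RIP replicate 2 against total RNA replicate 1 the count was 1, against 40% of all genes. Log2 ratios turned sign for E2F3 (-0.11 with no filter, -0.17 with GC content removed, -0.84 to 1.28 with 1 array left out), for E2F6 (-0.039 over probes detected on all arrays) and for RBL2 (-0.081 to 1.78 with 1 array left out). Relative to GAPDH they turned for E2F1 (-1.15 with quantile normalization, -0.58 without TIA1 RIP replicate 1, -0.37 without total RNA replicate 2, up to 1.05 without TIA1 RIP replicate 2, -1.79 against the median gene), TFDP2 (-0.21 and -0.89 with quantile normalization and the median gene) and RBL1 (-0.26 and -0.85 with the same, -0.33 with GC content removed). The cause was not tested. E2F5 and RB1 had no value over probes detected on all 4 arrays. Slide and scan as a block could not be fitted, since all arrays shared both.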
